A study of Mus musculus with 8 samples.

Results

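The genes described here are 38 glycolysis and hypoxia response genes, chosen by symbol from a list that runs from glucose uptake to lactate export and the response to low oxygen. All 38 were found among the 27923 genes of the tables. Their unique molecular identifiers (UMIs) were summed, and each gene was followed by cell class and by library, in border and whole-tumor samples. The members were 2 glucose transporters, 3 hexokinases, 9 genes of upper glycolysis, 6 of lower glycolysis, 3 of pyruvate and lactate handling, 3 of oxygen sensing through hypoxia-inducible factor (HIF), 2 of mitophagy and 10 of the wider hypoxia response.

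The cells came from autochthonous KP lung adenocarcinomas of 2 mice, with 1 tumor from each, called Tumor 1 and Tumor 2. Both mice were high-degree chimeras made from KP embryonic stem cells (p53 fl/fl, of C57BL/6 origin) in albino C57BL/6 host blastocysts, so that some cells of each lung could be of the host. Both received Adeno-SPC-Cre by the trachea at 12 weeks of age, a virus whose surfactant protein C promoter directs Cre to alveolar type II cells, and tumors were taken 16 weeks later. One mouse was male and the other female, so that sex, mouse and tumor cannot be told apart. Slices were stained with calcein NVOC, a caged dye that light turns fluorescent inside living cells, and the tumor periphery was illuminated. The Healthy/Tumor Border of each tumor was 1 Seq-Well library of cells sorted as positive for photoactivated calcein and for the viability dye calcein violet. The Whole Tumor was 3 Seq-Well libraries of non-photoactivated cells of the same tumor, which are technical arrays. The spread between arrays is therefore technical, and each p-value below compares these 2 tumors and not groups of mice. The border, with 1 library per tumor, was assumed to vary as the arrays do.

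As background, glucose enters cells through facilitative transporters, of which Slc2a1 (GLUT1) is widespread and Slc2a3 (GLUT3) has a high affinity. Hexokinases trap it as glucose 6-phosphate, phosphofructokinase commits it to glycolysis, and the kinases of the PFKFB family set the level of the metabolite that activates phosphofructokinase. Pyruvate kinase and lactate dehydrogenase close the pathway, and the monocarboxylate transporter Slc16a3 (MCT4) exports lactate. When oxygen is plentiful, prolyl hydroxylases of the EGLN family mark HIF-1α for destruction. When oxygen falls, HIF-1α persists, binds hypoxia response elements and raises most of these genes, Egln3 among them. Neutrophils are known to depend on glycolysis for most of their energy.

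The HIF dimer binds a core of 5 letters, ACGTG or GCGTG, and the promoters of 4 members that the results turn on are shown for that core. Slc2a1 brings glucose in, Hk2 traps it, Egln3 hydroxylates HIF-1α and Ddit4 restrains mTORC1 signaling. Each run holds the 250 bases before the RefSeq start on build GRCm38.p6, read 5′ to 3′ on the strand of the gene, and capitals mark the cores ACGTG and GCGTG on either strand (CACGT and CACGC when read from the other strand). The window of Slc2a1 is chr4:119108495-119108744 on the plus strand, that of Hk2 is chr6:82774455-82774704 on the minus strand, that of Egln3 is chr12:54203875-54204124 on the minus strand and that of Ddit4 is chr10:59951771-59952020 on the minus strand.
Slc2a1: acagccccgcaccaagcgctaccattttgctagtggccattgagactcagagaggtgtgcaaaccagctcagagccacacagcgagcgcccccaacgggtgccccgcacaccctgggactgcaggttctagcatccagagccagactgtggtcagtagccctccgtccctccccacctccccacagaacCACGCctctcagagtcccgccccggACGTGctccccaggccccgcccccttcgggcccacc
Hk2: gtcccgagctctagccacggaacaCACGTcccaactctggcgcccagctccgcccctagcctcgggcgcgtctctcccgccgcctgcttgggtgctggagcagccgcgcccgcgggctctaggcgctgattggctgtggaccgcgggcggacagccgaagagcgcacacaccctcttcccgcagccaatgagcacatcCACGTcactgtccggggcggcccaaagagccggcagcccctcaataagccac
Egln3: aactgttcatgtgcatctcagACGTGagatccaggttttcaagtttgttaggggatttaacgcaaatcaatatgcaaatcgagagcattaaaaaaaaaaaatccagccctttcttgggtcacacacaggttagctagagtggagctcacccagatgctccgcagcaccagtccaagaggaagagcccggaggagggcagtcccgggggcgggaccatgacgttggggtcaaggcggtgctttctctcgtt
Ddit4: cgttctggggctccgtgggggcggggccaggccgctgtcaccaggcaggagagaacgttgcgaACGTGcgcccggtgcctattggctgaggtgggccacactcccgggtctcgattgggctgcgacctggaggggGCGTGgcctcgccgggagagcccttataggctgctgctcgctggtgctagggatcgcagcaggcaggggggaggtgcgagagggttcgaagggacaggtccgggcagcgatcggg
The core stood at 2 places in the windows of Slc2a1, Hk2 and Ddit4 and at 1 place in that of Egln3.

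RefSeq windows of 300 bases (250 before and 50 after the start) were matched for 35 of the 38 members, Ero1l through its current symbol Ero1a. Slc2a3, Bnip3l and Ndrg1 were not matched. A core was present on either strand in 43 of the 53 windows of members (81.1%), against 14380 of all 32851 windows (43.8%). Over genes tested in the neutrophil-like class, a core was present in 31 of 39 windows of members (79.5%) and in 3930 of all 6144 (64.0%). At least 2 cores were present in 58.5% of the windows of members and in 17.3% of all windows. These matches describe letters and not bound sites. Among the members with no promoter shown, Slc2a3 lies at chr6:122727809-122801640, Pfkfb3 at chr2:11471433-11554077, Slc16a3 at chr11:120948480-120960868 and Hif1a at chr12:73901375-73947530 (GENCODE genes on GRCm38).

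At least 200 genes were found in 3894 barcodes, between 328 and 620 in each library. In all 8 tables the tumor number inside the cell names is swapped relative to the labels, and the labels were followed. Under the labels, the border of Tumor 1 has 686 barcodes and that of Tumor 2 has 534. The cell numbers that the methods give for each tumor and region belong to the tumors as labelled, not as the cell names have them. Classes were gated by marker genes that hold no member and are named as the markers read, with "-like", since the assignments of the authors were not used. The neutrophil-like class held 1661 barcodes and UMIs of all 13 of its markers, Csf3r, Cxcr2, S100a8 and S100a9 among them. The study named no separate neutrophil population, so a difference from it may come from the rebuilt names. The class spanned 103 to 442 barcodes and 105495 to 1069128 UMIs per library. Array 2 of the Whole Tumor of Tumor 2 was shallow, with a median of 587.5 UMIs per neutrophil-like barcode against 1708.0 to 2449.0 in the other 7 libraries. Of 3848 barcode sequences, 10 occurred in at least 2 libraries.

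Summed over all 38 genes, the neutrophil-like class and the keratin-high class had the highest medians. Levels are UMIs per 10000 UMIs of the class in a library, which count molecules at the 3′ end and so need no scaling by length. The median over libraries was 94.5 in the neutrophil-like class (72.1 to 112 over 8 libraries) and 92.4 in the keratin-high cells (73.7 to 109.7 over 4), and these ranges overlapped. Marco Prg4 macrophage-like cells had a median of 62.3 over 3 libraries, surfactant-high cells 46.8 over 3, T, NK or ILC-like cells 43.4 over 7, alveolar macrophage-like cells 41.9 over 4, C1q macrophage-like cells 38.9 over 6 and dendritic-like cells 38.2 over 4. These medians rest on different tumors, since Marco Prg4 macrophage-like and keratin-high libraries come from Tumor 1 alone. Within Tumor 1, Marco Prg4 macrophage-like cells had 57.1 to 64.9, below the 65.5 and 88.1 of C1q macrophage-like cells and overlapping the 63.1 to 84.2 of T, NK or ILC-like cells, and the keratin-high range overlapped both of these. Monocyte-like cells had 72.2 in their only library of at least 10 barcodes, array 3 of Tumor 2, where neutrophil-like cells had 90.6. That value lay within the 72.1 to 90.6 of the neutrophil-like libraries of Tumor 2. B-like cells were low at 22.0 over 6 libraries. The barcodes rich in satellite transcripts, with a median of 326.5 UMIs, had 20.8 over 7.

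**Figure D1:**
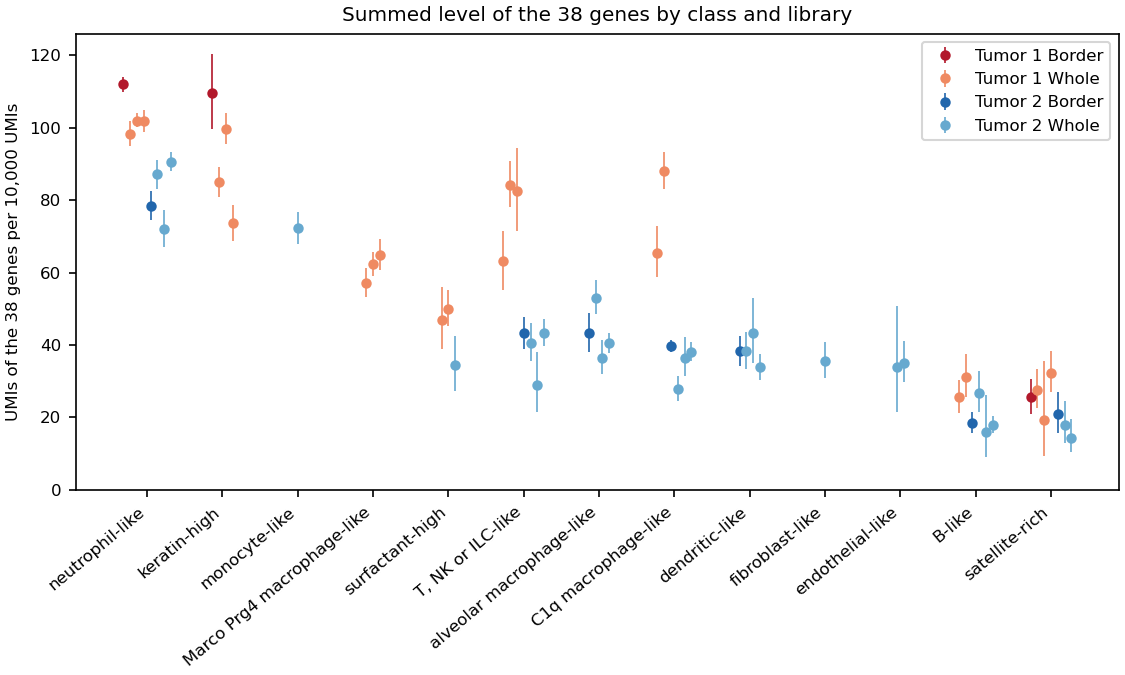
Summed level of the 38 glycolysis and hypoxia response genes in UMIs per 10000 UMIs of the class (vertical axis) for each marker-gated class (horizontal axis), with 1 point per library of at least 10 barcodes of the class, colored by tumor and region, and bars for exact Poisson 95% intervals (counting error only). Neutrophil-like libraries sit between 72.1 and 112 and keratin-high libraries between 73.7 and 109.7, while all B-like libraries sit at or below 31.1.

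The summed level, with no TMM scaling (edgeR's trimmed mean normalization between libraries), was higher in Tumor 1 than in Tumor 2 in several classes. In the neutrophil-like class the 4 libraries of Tumor 1 ranged from 98.3 to 112 and the 4 of Tumor 2 from 72.1 to 90.6. In the C1q macrophage-like class 2 libraries of Tumor 1 had 65.5 and 88.1, and 4 of Tumor 2 had 27.7 to 39.7. In the T, NK or ILC-like class 3 libraries of Tumor 1 had 63.1 to 84.2 and 4 of Tumor 2 had 29.0 to 43.4. The tumors did not overlap in these classes, and they overlapped in the B-like and satellite-rich classes. Between the neutrophil-like arrays, Tumor 2 against Tumor 1, the median log2 change without TMM was -0.89 over the members tested and -1.12 over all genes, and with TMM it was -0.07 and -0.28. Of members with at least 50 UMIs, 6 of 11 in the T, NK or ILC-like class lay higher in every library of Tumor 1 than in every one of Tumor 2 and 0 lower, against 9.92% and 14.0% of all such genes. In the C1q macrophage-like class 10 of 17 lay higher and 1 lower, against 15.6% and 15.1%. At the border, the neutrophil-like sum was 112 in Tumor 1, above its 3 arrays (101 ± 2.21, SD), and 78.4 in Tumor 2, within the spread of its arrays (83.3 ± 9.79, SD).

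Within the neutrophil-like class, upper glycolysis gave the largest mean share of the member UMIs in the arrays of both tumors, 28.3% in Tumor 1 and 23.5% in Tumor 2. The other roles were ordered differently. In the arrays of Tumor 1 the hypoxia response genes gave 18.6% to 19.6% and the glucose transporters 4.27% to 5.26%, and in those of Tumor 2 they gave 10.8% to 12.0% and 17.7% to 22.4%. At the borders the hypoxia response genes gave 22.4% and 16.3% and the transporters 5.76% and 8.42% in Tumor 1 and Tumor 2. The order of the members also differed between the tumors. In the arrays of Tumor 1 the aldolase Aldoa (mean 14.7 UMIs per 10000), the pyruvate kinase Pkm (10.6), the endoplasmic reticulum oxidase Ero1l (8.76) and the lactate dehydrogenase Ldha (8.03) led, and in those of Tumor 2 Slc16a3 (10.9), Hif1a (10.1), Slc2a3 (9.30) and Slc2a1 (7.24) led, ahead of Aldoa (7.12). At both borders Aldoa was highest, at 13.9 and 8.11. In keratin-high cells, pooled over libraries, the order was Aldoa, Pkm, Ldha and the triose phosphate isomerase Tpi1, and oxygen sensing gave only 4.70% of the member UMIs there. The order was not the same in every library, and at the border, with 10 keratin-high barcodes, Ndrg1 lay above Ldha. Gapdh, the glyceraldehyde phosphate dehydrogenase, had 89 UMIs in all neutrophil-like barcodes, 0.0933 to 0.389 per 10000 in a library, and 26 UMIs in keratin-high cells. The mouse genome holds many near-identical processed copies of Gapdh, and what part multiply fitting reads had in this low level was not tested. Pfkm, Aldoc, Pgam1, Eno2, Ak4, Car9 and Adm were too low to be tested in the neutrophil-like class, and Adm had 0 of 3796759 UMIs, which allows up to 0.00790 per 10000 (the level of 3 counts).

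Several enzymes of this pathway exist as alternative isoforms encoded by separate genes, and their shares were pooled over the libraries of a class. Slc2a3 gave 43.0% of the UMIs of Slc2a1 and Slc2a3 in neutrophil-like cells (19.2% to 44.3% in the libraries of Tumor 1 and 48.0% to 60.5% in those of Tumor 2), 2.12% (6 of 283) in C1q macrophage-like cells and 0 of 107 in keratin-high cells, which allows up to 3.39% (Clopper-Pearson, counting error only). Its share was 61.8% (21 of 34) in the B-like and 58.6% (17 of 29) in the satellite-rich class. It was 32.6% in T, NK or ILC-like, 21.6% in dendritic-like and 20.0% in monocyte-like cells, and 17.9% or less in the remaining classes. Hk2 gave 76.4% of hexokinase UMIs in neutrophil-like cells (38.9% to 82.7% by library) and 77.4% in C1q macrophage-like cells (68.8% to 88.8%), while Hk1, the form of most tissues, gave 62.1% in keratin-high cells (46.8% to 74.4%). The phosphofructokinase of liver type, Pfkl, gave 79.4% of its family in keratin-high cells (72.3% to 92.3%) and 49.3% in neutrophil-like cells (38.5% to 61.3%). The platelet type, Pfkp, gave 83.7% in dendritic-like cells (82.8% to 87.5%) and 77.0% in T, NK or ILC-like cells (50% to 89.3%). Egln3 gave 94.7% of the UMIs of Egln1 and Egln3 in neutrophil-like cells (83.3% to 99%) and 44.4% in C1q macrophage-like cells, where the 3 libraries with at least 10 such UMIs ran from 34.8% to 92.3% and so overlapped the neutrophil-like range. In the other classes its share ran from 20.6% in surfactant-high to 81.5% in satellite-rich barcodes, with 79.0% in T, NK or ILC-like and 71.2% in keratin-high cells.

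**Figure D2:**
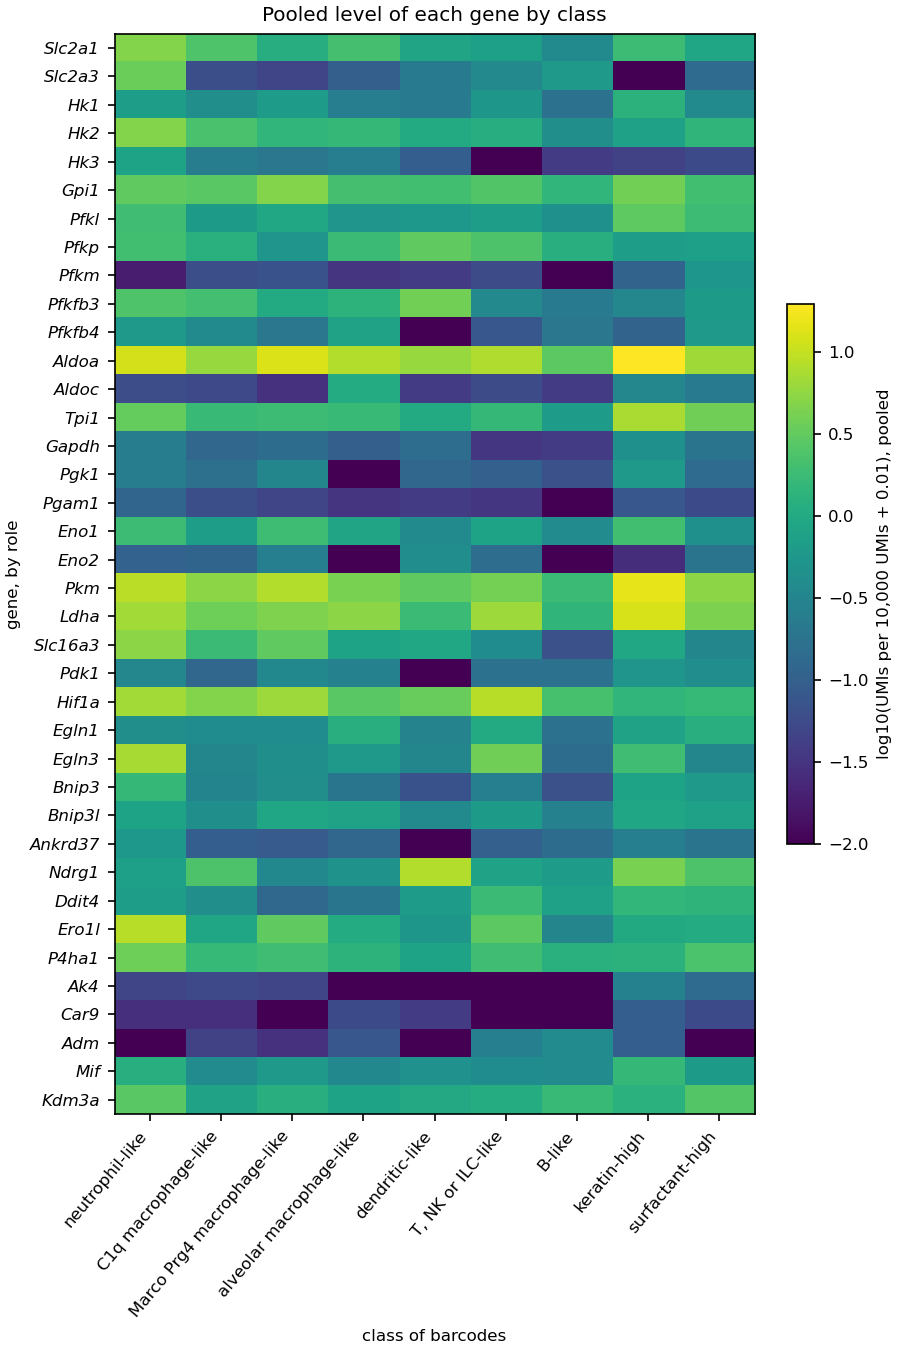
Pooled level of each of the 38 genes (rows, in order of role) in 9 marker-gated classes (columns), with color showing log10 of UMIs per 10000 plus 0.01. Slc2a3 is at 3.61 in the neutrophil-like column and without a UMI in the keratin-high column, and Aldoa, Pkm and Ldha are high in both.

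The question put to the border libraries was whether cells of the tumor periphery differ from those of the tumor as a whole. Border cells were also illuminated and sorted as positive for photoactivated calcein, and Whole Tumor cells were not photoactivated. Place, light and sorting therefore cannot be told apart. In the neutrophil-like cells of Tumor 1, 9 of the 31 members tested were higher at the Healthy/Tumor Border and 0 were lower (quasi-likelihood test of edgeR, p-values adjusted by the Benjamini-Hochberg method over 6214 genes, threshold 0.05). Of all genes tested, 6.52% were called higher and 1.42% lower. The 9 were the transporter Slc2a1, the glycolytic regulator Pfkfb3 and 7 genes of oxygen sensing, mitophagy and the hypoxia response, namely Egln3, Bnip3, Ddit4, Ankrd37, Ero1l, P4ha1 and Kdm3a. For each of the 9, the border library lay above all 3 arrays.

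Ddit4 changed most in Tumor 1. It had 1.41 UMIs per 10000 at the border and 0.556, 0.487 and 0.354 in the 3 arrays, a log2 fold change of 2.12 ± 0.33 (SE) with an adjusted p of 7.94e-06. Egln3 had 11.9 at the border and 6.0, 6.99 and 5.18 in the arrays. Its log2 fold change was 1.5 ± 0.25 (SE, adjusted p = 3.39e-05), and it was called under all 15 alternatives tried. In both genes the border library was far outside the range of the arrays.

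Slc2a1 had 4.84 UMIs per 10000 at the border of Tumor 1 and 3.39, 3.69 and 2.98 in the arrays, a log2 fold change of 1.06 ± 0.26 (SE, adjusted p = 0.00602). Ero1l, which forms disulfide bonds in secretory proteins, had 12.1 at the border and 8.28, 9.17 and 8.82 in the arrays (log2 fold change 1.00 ± 0.25, SE, adjusted p = 0.00668). Pfkfb3 had 2.10 at the border and 1.64, 1.42 and 1.11 in the arrays (1.13 ± 0.30, adjusted p = 0.00942). The remaining 4 had higher adjusted p-values. Ankrd37, an ankyrin repeat protein induced by HIF, had a log2 fold change of 1.20 (adjusted p = 0.0208), the histone demethylase Kdm3a of 0.96 (adjusted p = 0.0194), the mitophagy receptor Bnip3 of 0.94 (adjusted p = 0.0347) and the collagen prolyl hydroxylase P4ha1 of 0.82 (adjusted p = 0.0478).

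The abundant enzymes of the pathway were not called in Tumor 1. Pkm had 10.3 UMIs per 10000 at the border and 9.03, 11.2 and 11.4 in the arrays. Ldha had 8.0 at the border and 8.33, 7.53 and 8.21 in the arrays. In both genes the border lay inside the range of the arrays. Hk2, with 6.42 at the border and 5.97, 6.20 and 4.25 in the arrays, had a log2 fold change of 0.76 ± 0.27 (SE) and an adjusted p of 0.0795. Hif1a itself had 5.26 at the border, below its 6.08, 6.93 and 5.79 in the arrays, and was not called (log2 fold change 0.28 ± 0.26, SE, adjusted p = 0.589). Slc2a3 (0.71 ± 0.35), Hk3 (0.58 ± 0.34) and Gapdh (0.36 ± 0.52) were not called either.

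The fitted changes in Tumor 1 depended on the scaling between libraries. The trimmed mean of M-values (TMM) of edgeR, used to scale all fits, moved the median change of all genes by 0.55 on the log2 scale there, so that the median was -0.08 over all genes and 0.53 over the 31 members. Scaled by library size alone, 2 members were higher (Ddit4 and Egln3, log2 fold changes 1.57 and 0.95) and 1 was lower (Egln1, -1.28), and Hif1a (-0.28), Ldha (-0.02), Pkm (-0.05) and Gapdh (-0.19), not called under either scaling, changed sign. At that scaling 2.69% of all genes were called higher and 14.0% lower. Of the 9, 7 were not called at that scaling. The count of 9 fell to 5 without array 3 of Tumor 1, to 4 with DESeq2 and to 3 over barcodes with at least 500 genes.

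Other features of the neutrophil-like cells moved at the border of Tumor 1. The 16 genes of a tissue dissociation list, early response and heat shock genes that enzymatic digestion is known to induce, summed to 420.0 UMIs per 10000 at the border and to 300.2, 327 and 355 in the arrays, and 9 of the 16 were called higher, led by Dusp1 (2.76), Ier3 (2.60) and Atf3 (2.20). Cells of a Siglec-F type made up 24.7% of the neutrophil-like barcodes at the border and 39.1%, 45.4% and 39.0% in the arrays. They were gated by at least 2 markers of a list that names Siglecf, and Siglecf itself was not required. The 7 markers of C1q macrophages summed to 0.664 per 10000 in the neutrophil-like barcodes of the border and to 2.33 to 2.49 in those of the arrays, against 71.2 in their own class. Of 12 such marker lists of other classes, the border lay above all 3 arrays in 2, among them alveolar macrophages (0.963 against 0.101 to 0.611), below all 3 in 5 and within their range in 5. Mitochondrial transcripts took 3.96% of the UMIs of these cells at the border and 4.49% to 5.95% in the arrays, and the 10 most abundant genes took 24.8% and 18.6% to 20.9%. The part of these features in the results was not tested by itself. In fits restricted to 1 type of neutrophil, chosen after the data had been seen, Egln3 was called in Retnlg Hdc type cells alone (1.10, adjusted p = 0.0268), and Egln3 (1.62, adjusted p = 1.23e-07) and Ddit4 (2.40, adjusted p = 0.0213) were called in Siglec-F type cells alone. The other 7, at 0.82 to 1.20 over all neutrophil-like cells, were called in neither of these fits, in which 2.91% and 4.13% of all genes were called higher and which hold fewer barcodes. Their log2 fold changes were above 0 in both fits, at 0.60 to 1.38 in Retnlg Hdc type cells and 0.07 to 0.86 in Siglec-F type cells.

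**Figure D3:**
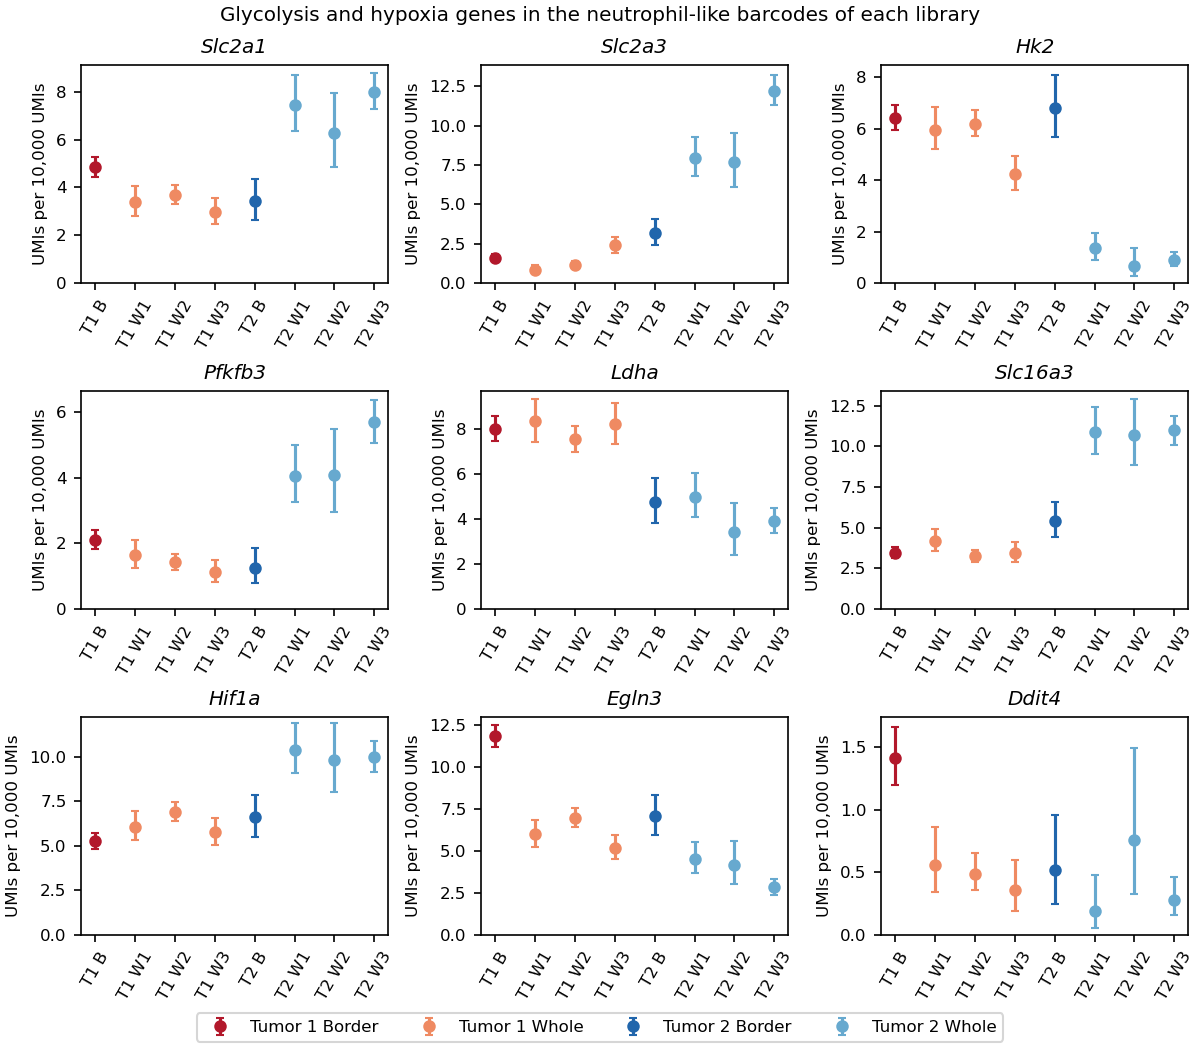
Level of 9 members in the neutrophil-like cells of each library, in UMIs per 10000 UMIs (vertical axes), with 1 point per library (B, border; W1 to W3, Whole Tumor arrays; T1 and T2, tumors) and error bars for exact Poisson 95% intervals, which cover counting error only. Egln3 and Ddit4 are highest at the border of Tumor 1, and Slc2a3, Pfkfb3 and Slc16a3 are highest in the 3 Whole Tumor arrays of Tumor 2.

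In Tumor 2 several genes of glucose and lactate transport were lower at the border. Of 31 members tested, 5 were lower at the border, namely Pfkfb3, Slc2a3, Slc2a1, Slc16a3 and Hif1a, and 1 was higher, Hk2. Of all 6214 genes tested, 4.06% were called lower and 2.57% higher. For each of these 6 members the border lay outside the range of the 3 arrays.

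Pfkfb3 had 1.25 UMIs per 10000 at the border of Tumor 2 and 4.06, 4.08 and 5.69 in the arrays, a log2 fold change of -2.28 ± 0.40 (SE, adjusted p = 2.36e-04). Slc2a3 had 3.17 at the border and 7.97, 7.68 and 12.2 in the arrays (-1.94 ± 0.40, adjusted p = 0.00152). Slc2a1 had 3.43 at the border and 7.46, 6.26 and 8.0 in the arrays (-1.45 ± 0.33, adjusted p = 0.00367). The border of Tumor 2 thus had levels of both glucose transporters below those of every array of its own tumor. Slc16a3, the lactate exporter, had 5.41 at the border and 10.9, 10.7 and 11.0 in the arrays, a log2 fold change of -1.36 ± 0.31 (SE, adjusted p = 0.00374). Hif1a had 6.60 at the border and 10.4, 9.86 and 10.0 in the arrays (-0.96 ± 0.30, adjusted p = 0.0370).

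Hk2 was the exception in Tumor 2. It had 6.81 UMIs per 10000 at the border and 1.35, 0.664 and 0.895 in the arrays, a log2 fold change of 2.40 ± 0.33 (SE, adjusted p = 5.65e-06). The arrays rest on 29, 7 and 48 UMIs of Hk2 and the border on 131. Its share of hexokinase UMIs was 80.4% at the border and 45.3%, 38.9% and 48 of 120 UMIs in the arrays, where Hk3, the hexokinase of myeloid cells, took 34.4%, 38.9% and 42.5%. In Tumor 1 the share of Hk2 was 82.7% at the border and 81.7%, 77.6% and 71.5% in the arrays. The share at the border of Tumor 2 thus lay within the range of the 4 libraries of Tumor 1 and above all 3 arrays of its own tumor.

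The other 25 members tested were not called in Tumor 2. Egln3 had 7.07 at the border and 4.52, 4.17 and 2.83 in the arrays, with a log2 fold change of 0.57 ± 0.30 (SE) and an adjusted p of 0.271. Ddit4 had 0.520 at the border and 0.187, 0.758 and 0.280 in the arrays, which overlapped. Pkm (0.16 ± 0.31), Ldha (-0.16 ± 0.31), Hk3 (-0.20 ± 0.45), Bnip3 (-0.69 ± 0.59) and Gapdh (0.79 ± 0.86) had small log2 changes or wide errors, and those of Ldha and Hk3 turned to 0.20 and 0.18 when scaled by library size alone. The median over the 31 members was -0.15 and that over all genes 0.02, after a TMM shift of -0.38.

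Beside these changes, the dissociation list summed to 226 at the border of Tumor 2 and to 365, 379 and 391 in the arrays, with 7 of its 16 genes called lower (Hspa1b -2.61, Fos -2.30, Hspa1a -1.83). Of the 12 marker lists of other classes, this border lay above all 3 arrays in 5, namely dendritic (0.728 per 10000 against 0 to 0.280), T, NK or ILC (0.936 against 0.168 to 0.746), monocyte (0.676 against 0.280 to 0.379), keratin (1.61 against 0.933 to 1.23) and Marco Prg4 macrophage markers (0.884 against 0.474 to 0.793), below all 3 in 4 and within their range in 3. The 10 most abundant genes took 23.2% of UMIs at the border and 24.6% to 27.9% in the arrays. The part of these features in the result was not tested. Siglec-F type cells made up 8.74% of neutrophil-like barcodes at the border and 3.64%, 1.28% and 1.33% in the arrays. In Retnlg Hdc type cells alone, Hk2 (2.64), Pfkfb3 (-2.03), Slc2a3 (-1.69), Slc16a3 (-1.35) and Slc2a1 (-1.32) were called, against 2.75% of all genes called higher and 3.30% lower, and Hif1a was not (-1.0, adjusted p = 0.0869). Scaled by library size alone, 3 were higher and 4 lower, with a median change of 0.24 over the members and 0.41 over all genes. Over barcodes with at least 500 genes, 3 were called in all. The shares of all genes called at these settings are not given here.

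The difference between the tumors in their border change was tested directly as an interaction. It was called for 6 of the 31 members, against 5.94% of all genes called lower and 2.37% called higher. Relative to Tumor 1, the border change of Tumor 2 was lower for Pfkfb3 (-3.40 ± 0.50, SE, adjusted p = 2.81e-06), Slc2a3 (-2.66 ± 0.52, adjusted p = 3.64e-04), Slc2a1 (-2.51 ± 0.42, adjusted p = 3.81e-05), Slc16a3 (-1.82 ± 0.40, adjusted p = 0.00183) and Hif1a (-1.24 ± 0.39, adjusted p = 0.0362). It was higher for Hk2 (1.65 ± 0.45, adjusted p = 0.0128). Slc2a1 and Pfkfb3 were called in opposite directions in the tumors. For Egln3 (-0.93 ± 0.41, adjusted p = 0.163) and Ddit4 (-1.83 ± 0.69, adjusted p = 0.0893), which were called in Tumor 1 alone, the difference was not called. In Retnlg Hdc type cells alone the difference was called for 1 member higher and 5 lower of 29, against 1.70% and 4.51% of all genes. TMM moved the median of all genes by -0.93 in this contrast. Scaled by library size alone, 2 members were called higher and 3 lower, against 13.6% and 2.20% of all genes.

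**Figure D4:**
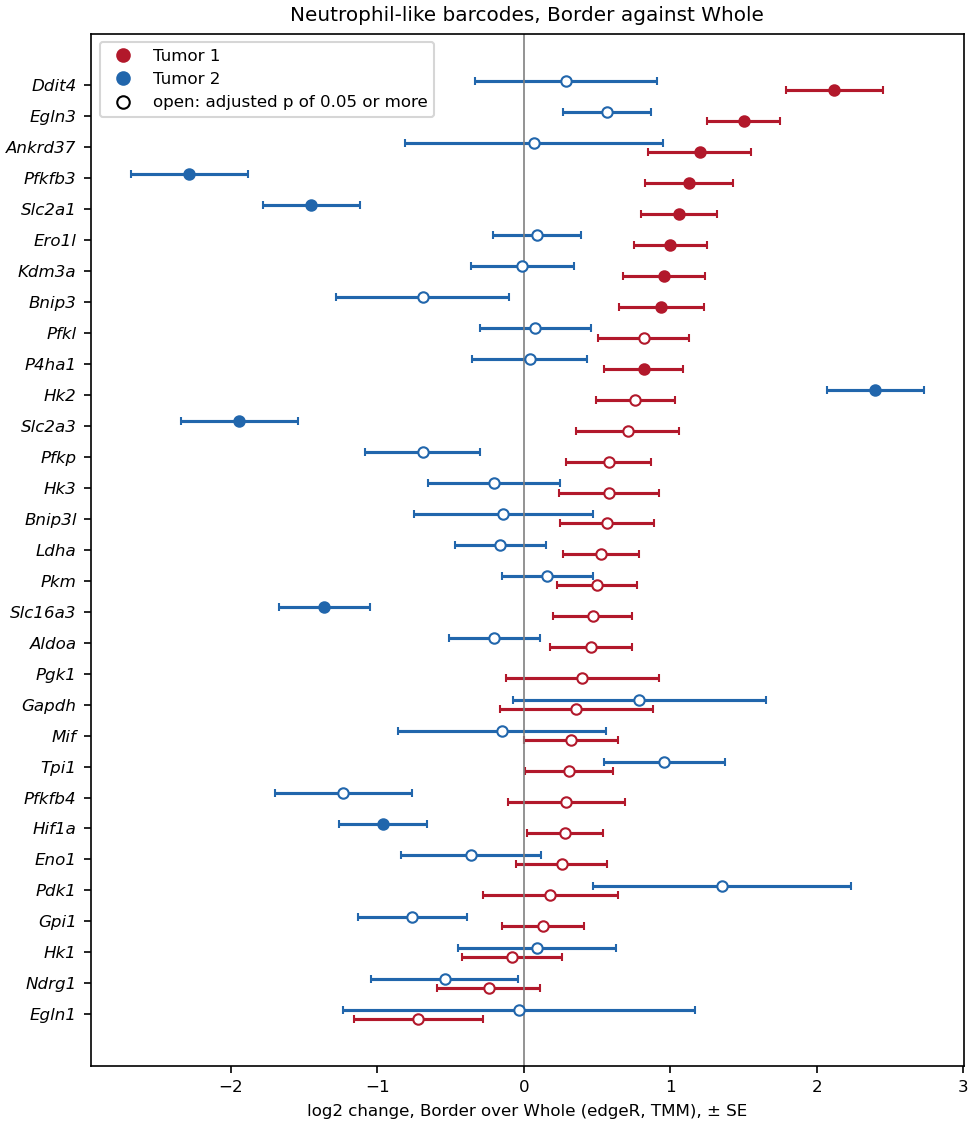
Log2 fold change of the border over the Whole Tumor in neutrophil-like cells (horizontal axis) for each tested member (vertical axis), with 1 point per tumor and bars of 1 standard error; filled points have an adjusted p under 0.05, and Pgk1 of Tumor 2 is left out because it had 0 UMIs at that border. Tumor 1 has 9 filled points to the right of 0, while Tumor 2 has Hk2 at 2.40 and 5 filled points to the left of 0.

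Compared directly, 3 Whole Tumor arrays against 3, the tumors differed in more members. In Tumor 2, 9 of the 31 members were higher and 8 were lower than in Tumor 1, but 21.7% of all genes were called higher and 22.4% lower, so that these shares are near those of all genes. Slc2a3 was higher by the most among the members, with 7.97, 7.68 and 12.2 UMIs per 10000 in Tumor 2 and 0.806, 1.15 and 2.38 in Tumor 1 (log2 fold change 3.53 ± 0.27, SE, adjusted p = 2.47e-15). Pfkfb3 had a mean of 4.61 ± 0.935 (SD) in Tumor 2 and 1.39 ± 0.265 in Tumor 1 (2.56 ± 0.24, SE). The means in Tumor 2 and Tumor 1 were 1.43 and 0.411 for Pfkfb4, its relative (2.51 ± 0.30), 10.9 and 3.62 for Slc16a3 (2.37 ± 0.21), 7.24 and 3.36 for Slc2a1 (1.91 ± 0.21), and 10.1 and 6.27 for Hif1a (1.47 ± 0.20). The arrays of the tumors did not overlap for any of these 6 genes.

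Hk2 and several enzymes were lower in the Whole Tumor of Tumor 2. Hk2 had 1.35, 0.664 and 0.895 there and 5.97, 6.20 and 4.25 in Tumor 1 (log2 fold change -1.66 ± 0.26, SE, adjusted p = 5.89e-07). Tpi1 had 0.793, 0.190 and 0.969 against 4.22, 4.66 and 4.25 (-1.68 ± 0.27, adjusted p = 1.99e-06). Neither gene had overlapping arrays. The cytokine and tautomerase Mif (-1.83 ± 0.35) and the prolyl hydroxylase Egln1 (-2.25 ± 0.54) were also lower, as were Pdk1, which inhibits pyruvate dehydrogenase (-1.34 ± 0.56, adjusted p = 0.0466), Ankrd37 (-1.10, adjusted p = 0.0448), Bnip3 (-0.91, adjusted p = 0.0124) and P4ha1 (-0.87, adjusted p = 0.00297). Egln1 rests on 7 UMIs in the arrays of Tumor 2. The call of Ankrd37 held in 3 of 17 alternatives and that of Pdk1 in 6 of 17.

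Aldoa had a mean of 7.12 UMIs per 10000 in Tumor 2 and 14.7 in Tumor 1, Pkm had 4.35 and 10.6, and Ldha had 4.10 and 8.03, and the arrays did not overlap for any of the 3. None of them was called after TMM, which moved the median of all genes by 0.83 in this contrast. Their fitted log2 changes were -0.22, -0.44 and -0.17, against a median of -0.28 over all genes, and without TMM they were -1.03, -1.26 and -0.98 against a median of -1.12. Hk3 was called higher at 1.12 ± 0.29 (adjusted p = 0.00160) although its arrays overlapped in level (0.664 to 1.03 against 0.611 to 0.834). Scaled by library size alone, 6 members were called higher and 17 lower, against 11.0% and 55.6% of all genes, and the calls of Pfkl (0.81) and Pfkp (0.73) turned to -0.02 and -0.10.

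**Figure D5:**
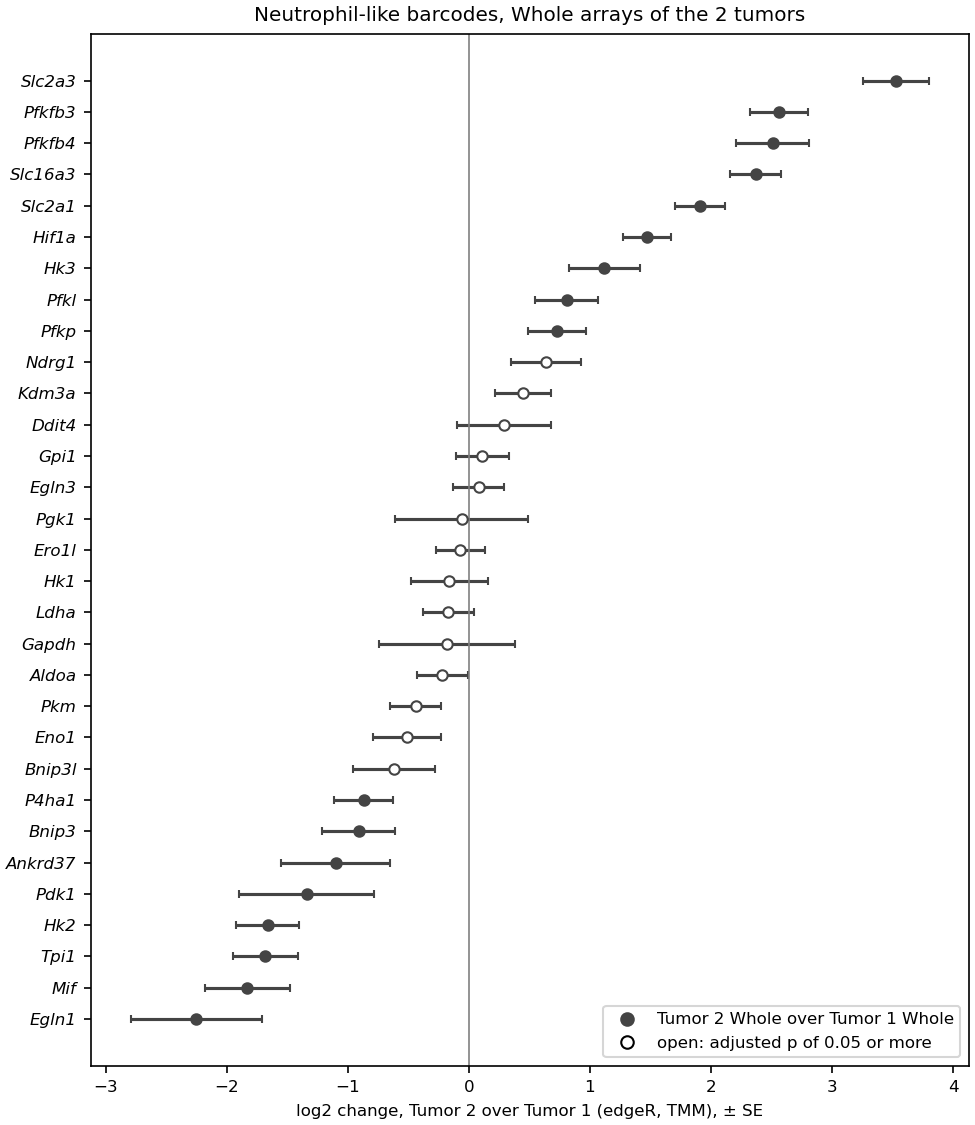
Log2 fold change (TMM scaling) of the Whole Tumor of Tumor 2 over that of Tumor 1 in neutrophil-like cells (horizontal axis) for each of the 31 tested members (vertical axis), with bars of 1 standard error and filled points for an adjusted p under 0.05. Slc2a3 lies farthest to the right at 3.53 and Egln1 farthest to the left at -2.25; Pfkl and Pfkp, filled at 0.81 and 0.73, turn to -0.02 and -0.10 without TMM.

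These tumors also differ in their neutrophil-like cells as a whole. Siglec-F type cells were 39.0% to 45.4% of neutrophil-like barcodes in the arrays of Tumor 1 and 1.28% to 3.64% in those of Tumor 2, and 12 of the 16 dissociation genes were higher in Tumor 2 (Fosb 6.55, Fos 3.84, Dusp1 3.82). In Retnlg Hdc type cells alone, 6 members were higher, namely Slc2a3 (3.71), Pfkfb4 (2.26), Slc16a3 (2.05), Pfkfb3 (1.95), Hif1a (1.70) and Slc2a1 (1.05), and 9 were lower, led by Hk2 (-2.58), Tpi1 (-2.03) and Mif (-1.81). These are 6 and 9 of 29 members tested, beside 20.6% of all genes called higher and 19.2% lower in that fit. The summed level of the members in Retnlg Hdc type cells was 104 to 121 in the libraries of Tumor 1 and 72.7 to 91.7 in those of Tumor 2, which did not overlap.

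Siglec-F type and Retnlg Hdc type neutrophils were compared within the 4 libraries of Tumor 1, with the library as a block. Of 27 members tested, 7 were lower in the Siglec-F type and 0 higher, against 6.52% of the 3343 genes called lower and 1.32% higher. Ddit4 had 0.683, 0.117, 0.171 and 0.212 UMIs per 10000 in the Siglec-F type and 1.98, 1.25, 1.19 and 0.594 in the Retnlg Hdc type, border first, and was lower in each library (log2 fold change -2.40 ± 0.34, SE, adjusted p = 8.23e-04). The Siglec-F type sums held 351268, 171020, 527449 and 188841 UMIs, so that its array levels of Ddit4 rest on few UMIs. The same few UMIs underlie the border comparison of Ddit4 in Siglec-F type cells alone. Slc2a1 had 3.56, 3.04, 3.01 and 1.59 against 5.85, 4.82, 5.25 and 4.95 (-1.19 ± 0.19, adjusted p = 0.00201). Both genes were thus lower in the Siglec-F type in 4 of 4 libraries. The others were Kdm3a (-0.90), Pfkp (-0.79), Ero1l (-0.73), the enolase Eno1 (-0.69) and Hk2 (-0.57). The summed levels were 92.6 to 101 in the Siglec-F type and 104 to 121 in the Retnlg Hdc type of these libraries, which did not overlap. Of the dissociation genes, 7 of 15 tested were lower in the Siglec-F type and 0 higher (Ier3 -1.63, Dusp1 -1.57, Egr1 -1.14), and their part in the result was not tested. Scaled by library size alone, 1 member was higher and 3 were lower, against 9.45% and 2.99% of all genes. The count of 7 fell to 2 without the border library or without array 2, to 4 without array 3 and to 1 without the block.

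C1q macrophage-like cells were compared between border and Whole Tumor in Tumor 2, where the border held 118 of them and the arrays 24, 29 and 42. Of 21 members tested, 0 were called by edgeR, 0 had an unadjusted p under 0.05 and DESeq2 called 0, while 0.403% of the 3222 genes were called higher and 0.124% lower. Slc16a3 had 1.69 at the border and 0.790 to 0.840 in the arrays (log2 fold change 0.94 ± 0.52, SE), Pfkfb3 1.48 against 1.68 to 3.36 (-0.95 ± 0.49) and Hk2 1.57 against 1.89 to 3.28 (-0.84 ± 0.48). Slc2a1 (-0.09 ± 0.48), Hif1a (-0.23 ± 0.44), Pkm (0.63 ± 0.42) and Ldha (0.31 ± 0.45) were not called either. The summed level was 39.7 at the border and 34.1 ± 5.58 (SD) in the arrays.

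Across macrophages and neutrophils, every library and class with at least 10 barcodes entered 1 fit with the library as a block. Against C1q macrophage-like cells, 18 of 31 members were higher in neutrophil-like cells and 0 lower, with 15.4% of the 9022 genes called higher and 11.5% lower. The sharpest was Slc2a3, with 0.806 to 12.2 UMIs per 10000 over 8 neutrophil-like libraries and 0 to 0.139 over 6 macrophage libraries (log2 fold change 6.70 ± 0.56, SE, adjusted p = 7.94e-26). Egln3 (4.46), Ero1l (3.16), Ankrd37 (2.57), Slc16a3 (2.38), Hk3 (2.29) and Kdm3a (2.04) followed, and of these Egln3, Ero1l, Hk3 and Kdm3a had no overlap between the classes. Slc2a1 (1.35), Hif1a (0.96), Ldha (1.03) and Bnip3 (1.53) were called with overlapping libraries. The 2 classes were also compared within each tumor, in fits added after the data had been seen. In libraries of Tumor 2 alone, 14 of 27 members were higher and 1, Ndrg1, lower, with 17.8% of all genes called higher and 18.1% lower. In those of Tumor 1 alone, where 2 arrays held C1q macrophage-like cells, 6 of 24 were higher (Slc2a3, Egln3, Ero1l, Kdm3a, P4ha1 and Hk2) and 0 lower, with 9.73% and 6.85% of all genes called. Slc2a1 had 3.39 and 3.69 UMIs per 10000 in neutrophil-like cells of these 2 arrays and 4.52 and 5.80 in C1q macrophage-like cells, with a fitted log2 change (TMM scaling) of -0.35 in Tumor 1 and 2.40 in Tumor 2. Hif1a had 6.08 and 6.93 against 8.66 and 12.1, with -0.48 in Tumor 1 and 1.78 in Tumor 2. Slc16a3 had 4.17 and 3.24 against 4.52 and 3.68, with 0.24 and 3.55. All 3 were thus called higher in neutrophil-like cells of Tumor 2 and were not called in Tumor 1, where their levels per 10000 UMIs were lower in both arrays. The difference between the tumors was not tested by itself. Of the 16 dissociation genes, 9 were also higher in neutrophil-like cells and 0 lower (Dusp1 2.02, Ier3 1.74, Atf3 1.73), and their part in the result was not tested. Without array 3 of Tumor 2 the calls were 8 higher and 1 lower, with DESeq2 9 and 1, and with library size alone 10 and 1, against 9.74% and 16.1% of all genes at that scaling. The shares of all genes called without that array and with DESeq2 are not given here.

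Marco Prg4 macrophage-like cells, found in the 3 arrays of Tumor 1, had 2 members lower than C1q macrophage-like cells and 0 higher, against 2.15% and 2.65% of all genes. Ndrg1, a stress-responsive gene of the hypoxia program, had 0.0914 to 0.555 UMIs per 10000 in the former and 1.10 to 3.95 in the latter (log2 fold change -2.16 ± 0.63, SE, adjusted p = 0.0196). Pfkp had 0.278 to 0.549 and 0.987 to 2.26 (-1.68 ± 0.54, adjusted p = 0.0459). Neither overlapped. The count was 1 when any of arrays 2 or 3 of either tumor was left out. The other 29 members tested were not called. Only arrays 1 and 2 of Tumor 1 held at least 10 barcodes of each class, and levels of C1q macrophage-like cells differed between the tumors. In the arrays of Tumor 1, Hif1a had 6.04, 7.5 and 5.28 UMIs per 10000 in Marco Prg4 macrophage-like cells and 8.66 and 12.1 in C1q macrophage-like cells, whose 4 libraries of Tumor 2 had 2.84 to 5.13. The Marco Prg4 level of Hif1a thus lay below C1q macrophage-like cells of the same tumor and above those of the other. Slc2a1 had 1.25, 1.01 and 1.19 against 4.52 and 5.80 in Tumor 1, and Hk2 had 2.15, 1.51 and 0.446 against 2.07 and 3.29, which overlapped. Slc2a3 had 2 UMIs in Marco Prg4 and 6 in C1q macrophage-like cells.

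The epithelial classes were compared by their markers. The paper hypothesizes that its epithelial clusters are mostly tumor cells but allows for healthy epithelial cells among them. Which part of either class here is healthy epithelium was not tested. Keratin-high cells, all from Tumor 1 once libraries with fewer than 10 barcodes were left out, had 4 of 31 members higher than surfactant-high cells and 0 lower, with 3.31% of the 9022 genes called higher and 3.13% lower. Pkm had 19.8, 12.9, 16.8 and 14.8 UMIs per 10000 in the 4 keratin-high libraries, border first, and 4.72, 6.05 and 2.86 in the 3 surfactant-high libraries, the last of them from Tumor 2 (log2 fold change 1.86 ± 0.52, SE, adjusted p = 0.0117). Ldha had 7.43, 11.4, 15.8 and 10.3 against 1.57, 4.03 and 4.09 (1.88 ± 0.54, adjusted p = 0.0147). Neither gene overlapped between the classes. Egln3 (3.61, adjusted p = 0.00650) and Eno1 (2.99, adjusted p = 0.00830) rest on 2 and 4 UMIs in the surfactant-high libraries compared. The count of 4 became 1 without array 2 of Tumor 1, 2 without array 1 and 7 with DESeq2.

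Against neutrophil-like cells, keratin-high cells had 4 members higher and 14 lower, with 19.1% and 19.9% of all genes called. Ndrg1 had 17.1, 4.86, 3.12 and 1.37 UMIs per 10000 in keratin-high cells, border first, and 0.496 to 0.986 in neutrophil-like cells (log2 fold change 2.66 ± 0.40, SE, adjusted p = 2.10e-09). The border value comes from 10 barcodes. Ddit4 (1.65) and Tpi1 (0.90) were also higher, as was Aldoc (2.19), which rests on 38 UMIs and was named after its value was seen. Ero1l (-3.77), Slc16a3 (-3.00), Hk2 (-2.87), Egln3 (-2.79), Hif1a (-2.59), Pfkfb3 (-2.58) and Slc2a1 (-1.49) were among the 14 lower, together with Hk3, Pfkp, Pfkfb4, Bnip3, P4ha1 and Kdm3a. Slc2a3 had 0 of 586284 UMIs in keratin-high cells, and its level of 1.46 in the neutrophil-like cells of Tumor 1 was at least 28.5-fold higher than 3 counts over that class would give. Mitochondrial transcripts took 12.4% of UMIs in keratin-high and 15.5% in surfactant-high cells against 4.57% in neutrophil-like cells, and 11 of the 16 dissociation genes were lower in keratin-high than in neutrophil-like cells and 1 higher. The part of both in these differences was not tested.

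Of the neighboring pathways, the other genes known to respond to HIF had 4 of 18 tested higher and 0 lower at the border of Tumor 1, namely Hilpda, a lipid droplet protein (log2 fold change 1.24, adjusted p = 4.69e-04), the cyclin Ccng2 (adjusted p = 0.0113), Fam162a (1.09) and Hmox1, a heme oxygenase (0.93), the last named after its value was seen, against 6.52% of all genes called higher and 1.42% lower. Cited2, which competes with HIF-1α for its coactivator, was higher at 2.05 ± 0.27 (SE, adjusted p = 2.21e-07), 1 of 5 genes of the HIF machinery tested. Bsg, the chaperone of the lactate transporters, was higher at 0.80 (adjusted p = 0.0493), 1 of 7 tested. Scaled by library size alone, Hilpda (0.69) and Cited2 (1.49) were called of these 6 genes, and Ccng2 (0.59), Fam162a (0.54), Hmox1 (0.38) and Bsg (0.25) were not. None of the 14 genes of the tricarboxylic acid cycle and none of the 6 of the pentose phosphate pathway was called there. At the border of Tumor 2, Hmox1 (-1.04, adjusted p = 0.0331) and Sdha (adjusted p = 0.0206) were lower, against 4.06% of all genes, and 0 genes of the other lists were called. Sdha rests on 3 UMIs at the border and 60 in the arrays, and Hmox1 (-0.68) was not called by library size alone. Between the Whole Tumors, where 21.7% of all genes were called higher and 22.4% lower, 4 of 14 tricarboxylic acid cycle genes were lower in Tumor 2, among them Mdh2 (-1.82), Cs (-1.56) and Suclg1, which had 1 UMI in the arrays of Tumor 2 and 62 in those of Tumor 1, and 0 were higher. Of 18 other genes known to respond to HIF, 3 were higher and 4 lower, of 7 genes of pyruvate and lactate fate 0 were higher and 2 lower, of 6 of the pentose phosphate pathway 1 was higher and 1 lower, and of 5 of the HIF machinery 1 was higher and 1 lower. Of the 5 genes of these lists that were higher, Vegfa (0.81) and Taldo1 (0.57) were also called by library size alone, and Ccng2 (0.47), Hmox1 (0.34) and Cited2 (0.24) were not.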

How the data were processed

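The authors sequenced 8 Seq-Well libraries, aligned the reads to mm10 with STAR 2.5.2b after bcl2fastq 2.17.1.14 (per the labels, following the Drop-seq protocol) and deposited 1 table of UMI counts per library, genes by barcodes. The annotation version is not given in the sources used here. Whether the deposited counts come only from uniquely placed reads is also not given there, which bears on genes with processed copies such as Gapdh and Pgk1.

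Barcodes with at least 200 genes were kept. Each was gated to the class with the highest marker score where at least 2 distinct markers were present and no other class reached 50% of that score, and barcodes with no class and at least 1% satellite transcripts formed a class of their own. The gate rule was written after the data had been seen, 288 of 3894 barcodes met no gate and 128 were ambiguous. Scrublet (scanpy 1.11.5) called 1 to 13 doublets per library, which stayed in, except in 1 alternative. Counts were summed per class and library, with at least 10 barcodes, and tested with edgeR 4.0.16 (filterByExpr, TMM, quasi-likelihood test, R 4.3.3) with Benjamini-Hochberg adjustment over all genes tested. DESeq2 1.42.0 was an alternative. Neutrophil-like libraries of both tumors shared 1 fit, and classes were compared with the library as a block. Each fit was also run on simulated counts, with as many genes raised as lowered, which do not bear on the scaling between libraries. No result is drawn from them here. Levels per 10000 UMIs use no TMM, and log2 fold changes do. TMM moved the median of all genes by -0.14 in C1q macrophage-like cells, -0.31 between neutrophil types, 0.15 and 0.33 for Marco Prg4 macrophage-like and neutrophil-like against C1q macrophage-like cells, and 0.22 and -0.06 for keratin-high against surfactant-high and neutrophil-like cells. Intervals are exact and cover counting error only.

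Slc2a1, Slc2a3, Hk2, Hk3, Gapdh, Ldha, Pkm, Hif1a, Bnip3 and Ddit4 were always followed. Up to 6 further members per direction with the largest change and at least 50 UMIs were named in each comparison, and up to 3 genes per pathway list. The members, lists and comparisons were chosen with earlier results of these data known. Part of the genotype of the KP cells is not reported here.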

Additional observations from a re-analysis of the deposited data

Results flagged for a closer look

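For 6 members the border change of neutrophil-like cells differed between the tumors by the interaction test of edgeR. On the log2 scale, Tumor 2 minus Tumor 1, the differences were -3.40 for Pfkfb3, -2.66 for Slc2a3, -2.51 for Slc2a1, -1.82 for Slc16a3, -1.24 for Hif1a and 1.65 for Hk2. Each tumor is 1 mouse with 1 border library. The differences for Pfkfb3, Slc2a3 and Slc2a1 were called under all 13 alternatives tried, those for Hk2 and Slc16a3 under 11 and that for Hif1a under 7. Groups of 1 and 3 libraries were too small to look for a single library that stands apart.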

How the results depend on the processing

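Of 1330 alternative values for the 87 pairs of called member and comparison, 1037 kept direction and call, 289 kept the direction without the call and 4 reversed, Pfkl (-0.02) and Pfkp (-0.10) between the Whole Tumors by library size alone, and Slc2a1 (-0.35) and Hif1a (-0.48) in neutrophil-like against C1q macrophage-like cells in libraries of Tumor 1 alone. The members named in every comparison gave 56 more pairs that were not called, and of their 785 alternative values 714 kept direction and call, 17 gained a call and 54 changed sign, 21 of them with 1 library left out. These sign changes fell in 29 of the 56 pairs. By library size alone the log2 change turned for Ldha (-0.02), Pkm (-0.05), Gapdh (-0.19) and Hif1a (-0.28) at the border of Tumor 1, for Hk3 (0.18) and Ldha (0.20) at that of Tumor 2, for Hk3 (0.15), Ldha (0.22) and Pkm (0.58) in the difference between tumors, for Ddit4 (-0.54) between the Whole Tumors, for Slc2a1 (0.06) in C1q macrophage-like cells, for Slc2a3 (0.25) between neutrophil types, for Pkm (-0.04) in Marco Prg4 against C1q macrophage-like cells, and for Bnip3 (-0.15) and Ddit4 (-0.04) in keratin-high against surfactant-high cells. With DESeq2 it turned for Slc2a1 (0.01) in C1q macrophage-like cells and Hk2 (-0.02) in neutrophil-like against C1q macrophage-like cells. With at least 500 genes and under a stricter gate, respectively, it turned for Slc2a3 between neutrophil types (0.03 and 0.91), Hk3 in Marco Prg4 against C1q macrophage-like cells (0.32 and 0.40), and Hk2 (0.29 and 0.19) and Hk3 (2.63 and 2.19) in keratin-high against surfactant-high cells, for Hif1a in the last comparison with at least 500 genes (-0.14) and for Pkm at the border of Tumor 2 under the stricter gate (-0.00). Without the library block it turned for Slc2a3 (-0.39), Ldha (0.25) and Bnip3 (0.24) in Marco Prg4 against C1q macrophage-like cells, and in the added fits for Hif1a at the border of Tumor 1 in Siglec-F type cells (-0.05), for Hif1a in Marco Prg4 against C1q macrophage-like cells of Tumor 1 alone (-0.66) and for Ddit4 between the Whole Tumors in Retnlg Hdc type cells (-1.21). Members called at the border of Tumor 1 numbered 9, and 3 by library size alone, 4 with DESeq2, 2 without a filter on low counts, 3 over barcodes with at least 500 genes, and, in fits added after the data had been seen, 1 in Retnlg Hdc type and 2 in Siglec-F type cells. At the border of Tumor 2 the 6 became 3 without the filter and 3 with at least 500 genes, and the 6 differences between tumors became 3 with at least 500 genes. Between neutrophil types the 7 became 4 by library size alone, 3 with DESeq2, 4 without the filter, 4 with at least 500 genes, 2 under a stricter gate and 1 without the library block. For Marco Prg4 against C1q macrophage-like cells the 2 became 1 without the filter, 1 with at least 500 genes and 1 without the block. For neutrophil-like against C1q macrophage-like cells the 18 became 11 by library size alone, 10 with DESeq2, 6 in libraries of Tumor 1 alone and 15 in those of Tumor 2 alone. For keratin-high against surfactant-high cells the 4 became 7 with DESeq2 and 2 with at least 500 genes. The cause of these shifts was not tested.

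With 1 library left out at a time, the calls ranged from 5 to 11 at the border of Tumor 1, 5 to 6 at that of Tumor 2, 5 to 7 for their difference, 14 to 17 between the Whole Tumors, 2 to 7 between neutrophil types, 1 to 3 for Marco Prg4 against C1q macrophage-like cells, 9 to 20 for neutrophil-like against C1q macrophage-like cells, 1 to 5 for keratin-high against surfactant-high cells and 15 to 18 against neutrophil-like cells, and stayed at 0 in C1q macrophage-like cells. The summed level, border minus Whole Tumor, ranged from 9.76 to 11.8 in neutrophil-like cells of Tumor 1, from -10.4 to -1.21 in those of Tumor 2 and from 2.4 to 7.57 in C1q macrophage-like cells. In Tumor 2 it was 0.619 over barcodes with at least 500 genes, against -4.87. Changes of members not called that turned with 1 library left out ranged from -0.05 to 0.33 for Pkm at the border of Tumor 2, from -0.80 to 0.05 for Gapdh and -0.05 to 0.54 for Ddit4 between the Whole Tumors, from -0.46 to 1.23 for Slc2a1, -0.42 to 0.17 for Hif1a and -0.33 to 0.29 for Bnip3 in C1q macrophage-like cells, from -0.36 to 0.09 for Slc2a3 and -0.07 to 0.53 for Hif1a between neutrophil types, from -1.58 to 2.53 for Slc2a3, -0.35 to 0.01 for Hk3, -0.03 to 0.13 for Pkm and -0.00 to 0.35 for Hif1a in Marco Prg4 against C1q macrophage-like cells, from -0.04 to 0.80 for Hk2 in neutrophil-like against C1q macrophage-like cells, and from -1.04 to 0.03 for Hk2, -0.43 to 1.10 for Hif1a and -0.51 to 0.55 for Bnip3 in keratin-high against surfactant-high cells.

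The array numbers of the labels do not pair the samples, with correlations of -0.01, -0.01 and -0.03 between same-numbered arrays. A fit of the Whole Tumor arrays with the array number as a replicate block called 14 members between the Whole Tumors (8 higher, 6 lower). The same arrays without the block called 16 (9 and 7), in a fit added after the data had been seen, and the fit that also held the border libraries called 17 (9 and 8). That last fit called 21.7% of all genes higher and 22.4% lower, and the shares in the other fits are not given here.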

Other observations

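T, NK or ILC-like cells, for which no fitted contrast is given above, held Egln3 and Ero1l at higher levels per 10000 UMIs, with no TMM scaling, in the libraries of Tumor 1. The sum over all members was also higher there, at 63.1 to 84.2 against 29.0 to 43.4. Egln3 had 4.22, 11.7 and 7.67 UMIs per 10000 in the 3 arrays of Tumor 1, and 0.434 at the border and 2.06, 0.568 and 1.38 in the arrays of Tumor 2. Ero1l had 3.96, 5.34 and 9.69 in Tumor 1, and 1.63, 0.859, 0.568 and 1.38 in Tumor 2. Neither gene overlapped between the tumors, which also held for 9.92% of all genes with at least 50 UMIs in this direction. The lactate dehydrogenase Ldha had 7.92, 12.9 and 14.9 against 3.25, 4.13, 3.41 and 3.63, and the aldolase Aldoa 12.1, 14.6 and 18.2 against 5.42, 5.16, 2.27 and 4.66, also without overlap. Hif1a had 6.60, 12.6 and 14.1 against 6.51, 5.50, 7.95 and 9.41, which overlapped. These libraries hold 11 to 44 barcodes of the class, no test was made, and each tumor is 1 mouse.

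C1q macrophage-like cells also held members at different levels in the tumors, in both directions, with a summed level of 65.5 and 88.1 in Tumor 1 and 27.7 to 39.7 in Tumor 2. Slc2a1 had 4.52 and 5.80 in arrays 1 and 2 of Tumor 1, and 1.71 at the border and 0.630, 0.790 and 2.96 in the arrays of Tumor 2. Hif1a had 8.66 and 12.1 against 3.43, 2.84, 2.96 and 5.13, and Aldoa 8.85 and 14.9 against 5.07, 3.57, 4.94 and 3.79. None of the 3 overlapped, where 15.6% of all genes with at least 50 UMIs were higher in every library of Tumor 1. Ndrg1 went the opposite way, at 1.13 and 1.10 in Tumor 1 and 3.05 at the border and 1.47, 3.95 and 1.90 in the arrays of Tumor 2, also without overlap, which held for 15.1% of genes in that direction. In dendritic-like cells, found in number in Tumor 2 alone, Ndrg1 was the most abundant member at 9.12 at the border and 9.0, 8.86 and 7.57 in the arrays, while Pfkfb3 varied from 0 to 5.13 in the arrays.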
